A study of Mus musculus with 30 samples.

Results

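The 37 genes described here belong to the unfolded protein response and the heat shock response. They were taken by symbol from the gene name column of the kidney and the gastrocnemius count tables, which list 54838 and 55487 genes, and all 37 were found in both. They were kept as 3 lists, 22 genes of the endoplasmic reticulum (ER), 6 genes of the ATF4 branch and 9 heat shock genes. The rule used symbols and no measured value, but the genes and lists were chosen with earlier results of these data known. All 37 passed the filter on low counts in both tissues.

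The ER folds secreted and membrane proteins, and the sensors IRE1, PERK and ATF6 in its membrane raise chaperones, disulfide isomerases and degradation factors when unfolded protein builds up. PERK acts through phosphorylation of a translation initiation factor, which lowers general protein synthesis while the transcription factor ATF4 is made, and ATF4 turns on genes of amino acid supply and stress signalling. The heat shock response is a separate programme of the cytosol and nucleus, driven by the factor HSF1, whose targets hold proteins in a soluble state. In skeletal muscle, small heat shock proteins and BAG3 also guard the contractile filaments.

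RNA-seq was performed on kidney and gastrocnemius, a fast-twitch calf muscle, of male wild-type C57BL/6J mice kept at thermoneutrality (30 to 32 °C), in 3 groups of 5 libraries per tissue and 30 libraries in all. CD mice received the control diet and water by gavage, WD mice a western diet and water, and WD + CHP mice the western diet and cyclo(His-Pro) (CHP), a cyclic dipeptide, at 20 mg/kg 3 times a week. Diets and gavage began at 7 weeks of age and mice were killed at 24 weeks of age following 3 h without food. Every group shared the strain, the sex, the warm housing and the gavage, so the groups say nothing of females or of other strains, and whether the kidney and muscle of 1 mouse were both sequenced is not stated.

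Kidney libraries held 37189192 to 38211422 counts each, and gastrocnemius libraries 50319024 to 53282969. The sequenced tissues were checked against cell markers. All 15 proximal tubule markers passed the filter in kidney, and their summed level was 39767 to 48955 CPM (counts scaled to the size of the library), while *Myh4* and *Myh2*, fast fibre myosins, had 0 counts there. All 12 fast fibre markers passed in gastrocnemius, with a summed level of 195686 to 261227 CPM, and *Slc5a12*, *Slc22a6* and *Miox* of the proximal tubule had 0 counts. The 37 genes had between 17 and 100948 counts in a kidney library and between 33 and 62011 in a gastrocnemius library. Their coefficient of variation within a group had a median of 9.89% in kidney and 9.11% in gastrocnemius. In bulk tissue, fewer cells of a type and less RNA per cell cannot be told apart.

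Per kilobase of exon, the most abundant of the 37 genes in CD kidney was *Hspa8*, the constitutive cytosolic Hsp70, at 408 ± 95.8 CPM per kb (mean ± SD, n = 5). *Calr* and *P4hb*, an ER lectin chaperone and a protein disulfide isomerase, followed at 269 ± 17.8 and 240.2 ± 7.92 CPM per kb. The least abundant were *Chac1* and *Trib3* at 0.567 ± 0.0560 and 0.251 ± 0.0624 CPM per kb. In CD gastrocnemius the first places went to *Cryab*, the small heat shock protein αB-crystallin, at 231 ± 49.4 CPM per kb and *Hspa8* at 227 ± 14.1 CPM per kb, which lay within their spread of each other, as did *Hspb1* and *Chac1* at 77.4 ± 12.6 and 76.8 ± 30.3 CPM per kb. *Chac1* encodes an enzyme that degrades glutathione. Its level was 0.927 CPM in CD kidney and 126 CPM in CD gastrocnemius, 136-fold apart, in tables that were normalised separately and without a test. Of the rest, by CD means and again without a test, 6 genes were higher in muscle, namely *Hspb1*, *Cryab*, *Bag3*, *Ppp1r15a*, *Trib3* and *Atf4*. The remaining 30 had higher means in kidney, although the CD libraries of the tissues overlapped for *Hspa1a* and *Hsph1*.

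Promoter sequences are shown because each of the 3 branches has a known response motif that could be searched in them. The sequences come from RefSeq on GRCm38.p6 and run from 250 bases before to 50 after each start. A promoter was matched for 31 of the 37 genes, and *Manf*, *Hyou1*, *Atf6*, *Hspa8*, *Hsp90aa1* and *Cryab* were without a match. Each motif was searched on both strands of 32851 promoters of 27025 genes, and a gene was counted where any of its promoters held the motif. These promoters leave out a whole chromosome, which holds none of the 37 genes. The ER stress response element, CCAAT and CCACG with 9 bases of any kind between them, was present in 8 of 19 ER genes (42.1%), in 0 of 6 ATF4 genes and 0 of 6 heat shock genes, and in 0.119% of all promoters (0.137% of all genes). The sites are printed 5′ to 3′ along the motif strand with 5 flanking bases on each side, and capitals mark the motif.
*Hspa5*, chr2:34772025-34772043: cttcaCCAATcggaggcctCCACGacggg
*Hsp90b1*, chr10:86705638-86705656: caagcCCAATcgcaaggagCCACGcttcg
*Hsp90b1*, chr10:86705533-86705551: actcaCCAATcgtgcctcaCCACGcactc
*Calr*, chr8:84847075-84847093: atgggCCAATgagggtcgaCCACGcgttg
*Canx*, chr11:50325800-50325818: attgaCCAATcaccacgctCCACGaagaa
*Pdia6*, chr12:17266491-17266509: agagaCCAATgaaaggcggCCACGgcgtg
*Dnajc3*, chr14:118937827-118937845: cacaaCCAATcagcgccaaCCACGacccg
*Creld2*, chr15:88819520-88819538: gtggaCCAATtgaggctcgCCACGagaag
*Syvn1*, chr19:6046532-6046550: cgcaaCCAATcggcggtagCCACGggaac

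The related element II, ATTGG and CCACG with 1 base between them, stood in the promoters of *Dnajb11* and *Herpud1* (10.5% of the ER genes, 0.0444% of all genes). The motif TGACGTGG, to which spliced XBP1 is known to bind, was in none of the 31 genes and in 0.714% of all genes. The amino acid response element TGATGNAA, known as a site of ATF4 and its partners, was in 3 of 6 ATF4 genes (50%), in the ER gene *Herpud1* and in 4.51% of all genes.
*Dnajb11*, chr16:22857852-22857862: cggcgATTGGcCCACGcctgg
*Herpud1*, chr8:94386377-94386387: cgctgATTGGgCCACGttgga
*Trib3*, chr2:152344039-152344046: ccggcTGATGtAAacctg
*Asns*, chr6:7693225-7693232: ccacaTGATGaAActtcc
*Chac1*, chr2:119351049-119351056: aggagTGATGcAAcggca

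Of the heat shock genes, *Hsph1* alone held the 3-unit heat shock element, GAA, TTC and GAA with 2 bases of any kind between units, which was in 0.662% of all genes. The shorter pair GAANNTTC or TTCNNGAA, which every 3-unit element contains and which was searched after the 3-unit result was known, stood in 5 of 6 heat shock genes (83.3%: *Hspa1a*, *Hspa1b*, *Hsph1*, *Hspb1* and *Bag3*), in *Eif2ak3* and *Asns*, and in 17% of all genes. The whole promoters of *Hspa1a* and *Hspa1b*, the stress-inducible Hsp70 genes, are shown because these genes had the largest fold changes of the 37, and they were identical at 296 of 300 bases (98.7%). Capitals mark the pair. A match is a description of these letters and not a bound site, and the lack of one says only that the letters are not in this window.
*Hsph1*, chr5:149636288-149636300: gaggaGAActTTCcaGAAtctgc
*Hspa1a* promoter, chr17:34972107-34972406, minus strand: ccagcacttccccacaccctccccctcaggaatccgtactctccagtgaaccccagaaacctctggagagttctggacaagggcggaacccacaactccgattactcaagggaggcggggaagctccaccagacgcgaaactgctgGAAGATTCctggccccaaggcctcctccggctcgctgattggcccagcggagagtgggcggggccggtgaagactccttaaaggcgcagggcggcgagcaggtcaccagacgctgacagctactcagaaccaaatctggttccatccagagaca
*Hspa1b* promoter, chr17:34959189-34959488, minus strand: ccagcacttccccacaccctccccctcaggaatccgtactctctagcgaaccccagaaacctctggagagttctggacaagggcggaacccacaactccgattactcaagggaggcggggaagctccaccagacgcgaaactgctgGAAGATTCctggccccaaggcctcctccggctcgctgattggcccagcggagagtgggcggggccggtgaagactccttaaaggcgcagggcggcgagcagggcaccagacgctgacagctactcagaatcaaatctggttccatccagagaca

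**Figure D1:**
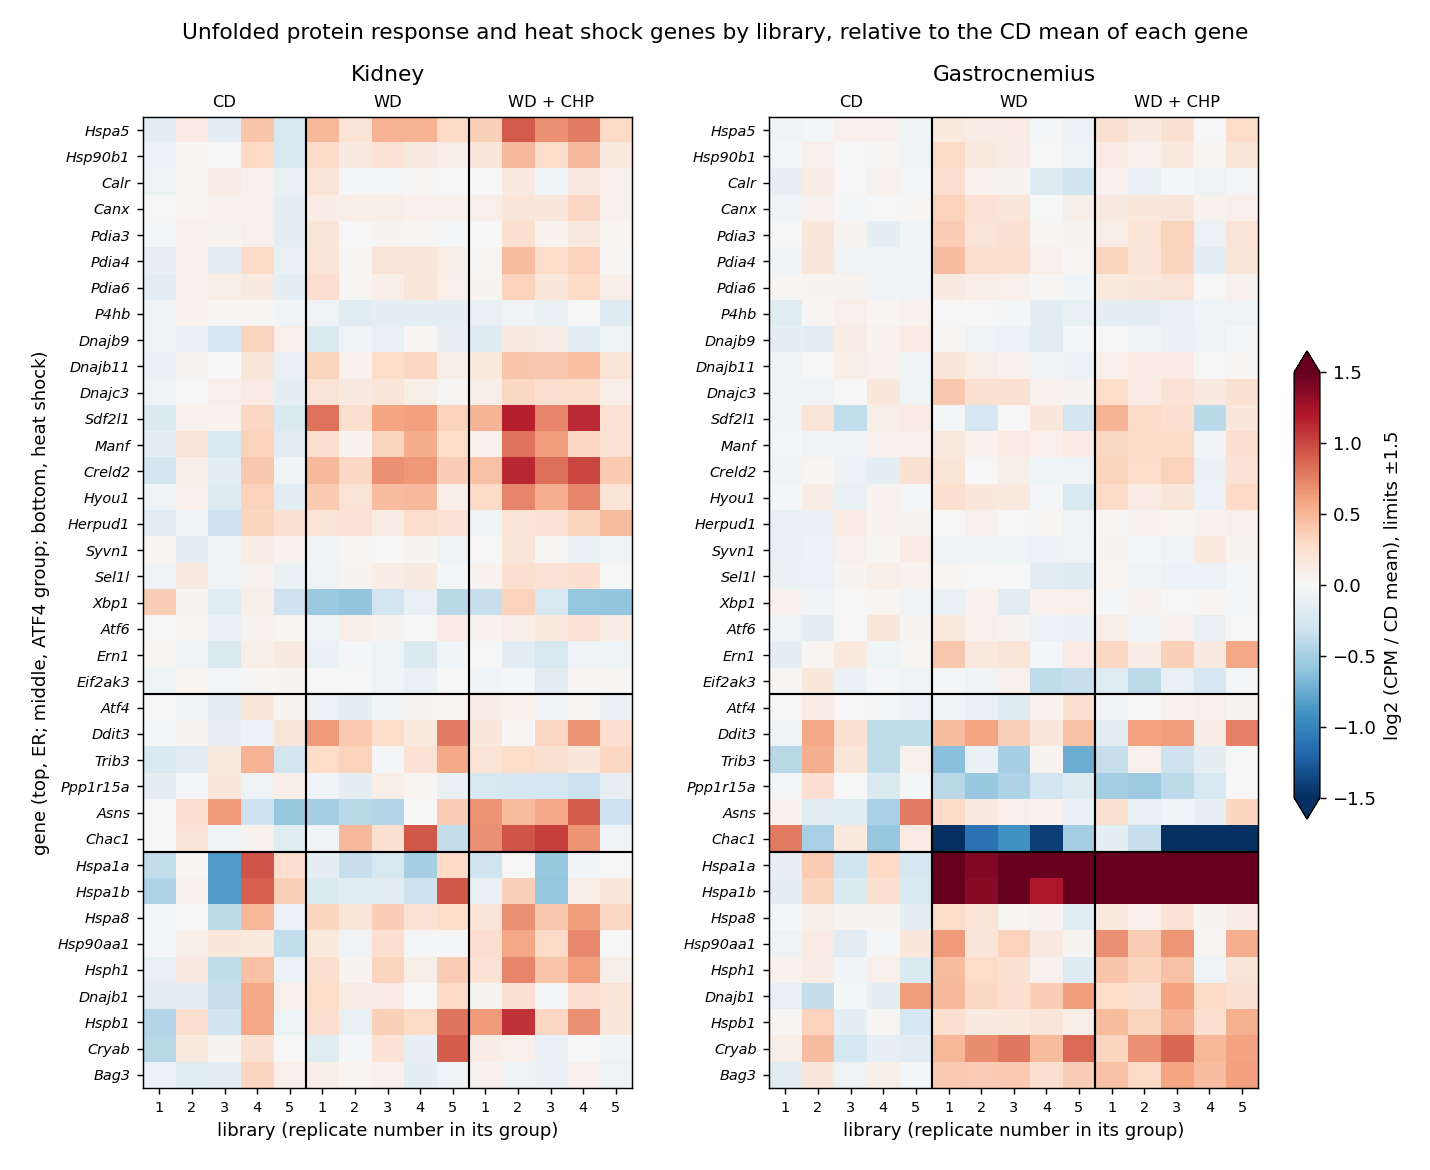
Each cell is 1 gene (rows; ER genes at the top, ATF4 group in the middle, heat shock genes at the bottom) in 1 library (columns, replicates 1 to 5 of CD, WD and WD + CHP), coloured by log2 of its CPM over the CD mean of that gene, with the scale ending at -1.5 and 1.5. In gastrocnemius the *Hspa1a* and *Hspa1b* rows are red in all 10 WD and WD + CHP libraries, and in kidney the *Hspa5*, *Sdf2l1*, *Creld2* and *Hyou1* rows are reddest in WD + CHP replicates 2 and 4.

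WD vs. CD addressed what the western diet changed. In kidney *Creld2*, an ER stress-inducible secreted protein, and *Ddit3*, which encodes the transcription factor CHOP, were upregulated, and the disulfide isomerase *P4hb* was downregulated. These 3 of 37 (8.11%) stand beside 9.65% of all genes tested (4.62% higher and 5.03% lower) by edgeR's quasi-likelihood F test at an adjusted p under 0.05. At an unadjusted p under 0.05 the counts were 9 of 37 genes and 24.9% of all. In the main edgeR fit none of the 9 heat shock genes was called, with 0 at an unadjusted p under 0.05. With all libraries in, DESeq2 and limma-voom also called 0 of the 9. DESeq2 called 6 of the 37 and 2029 of all genes, against 1652 of all genes by edgeR. The median log2 fold change was 0.10 for the ER genes, 0.11 for the ATF4 genes and 0.13 for the heat shock genes, against 0.0015 over all genes. Single libraries moved the last 2 of these medians, that of the ATF4 genes to 0.035 without WD replicate 4 and to 0.17 without CD replicate 4, and that of the heat shock genes to 0.080 without WD replicate 5 and to 0.26 without CD replicate 4. *P4hb* was the only gene of the 37 whose CD and WD libraries did not overlap, against 4.02% of all genes with every WD library higher and 4.67% with every WD library lower.

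*Creld2* (chr15:88819646-88826683, plus strand) had 16.6, 21.4, 17.8, 26.5 and 19.1 CPM in CD, 28, 24.8, 32.1, 31.5 and 25.8 in WD and 27.2, 43.9, 35.4, 40.2 and 26.2 in WD + CHP. The WD libraries lay mostly above the CD libraries, but CD replicate 4 exceeded WD replicates 2 and 5. The WD mean was 1.4-fold the CD mean (log2 fold change 0.49 ± 0.15 (SE), adjusted p = 0.0432). This call was lost without CD replicates 1, 2, 3 or 5 or WD replicates 1, 3 or 4 (adjusted p = 0.0636 to 0.101). *P4hb* (chr11:120560298-120573253, minus strand) measured 663, 716, 695, 696 and 666 CPM in CD, 662, 604, 623, 624 and 623 in WD and 637, 660.3, 637, 688 and 602 in WD + CHP. Every WD library was below every CD library, and the WD + CHP libraries reached into the CD range. The fall was small (log2 fold change -0.13 ± 0.041 (SE), adjusted p = 0.0497) and was not called without CD replicates 1, 2, 3, 4 or 5 or WD replicates 2, 3, 4 or 5 (adjusted p = 0.0619 to 0.136). The counts themselves moved with single libraries, to 0 without CD replicate 1 or CD replicate 3, to 1 without WD replicate 1, 3 or 4 or CD replicate 2 or 5, and to 8 without CD replicate 4.

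WD + CHP vs. CD set mice on both the western diet and CHP against the control diet, and it shares its CD libraries with WD vs. CD and its WD + CHP libraries with WD + CHP vs. WD. In kidney, 8 of the 11 genes called were ER genes, from the list that holds 22 of the 37. *Hspa5*, *Hsp90b1*, *Canx*, *Dnajb11*, *Dnajc3*, *Sdf2l1*, *Creld2* and *Hyou1* were upregulated by 0.16 to 0.78 on the log2 scale, while no ER gene was downregulated. Of the heat shock genes *Hspa8* and *Hsp90aa1* were upregulated, and of the ATF4 group *Ppp1r15a* was downregulated. Together 11 of 37 genes were called (29.7%), beside 12.1% of all genes tested (6.25% higher and 5.84% lower). The ER genes gave 8 of 22 (36.4%), the heat shock genes 2 of 9 (22.2%) and the ATF4 genes 1 of 6. The unadjusted p was under 0.05 for 22 of 37 genes, beside 27.4% of all. Median log2 fold changes were 0.17 for the ER genes, 0.25 for the ATF4 genes and 0.11 for the heat shock genes, against -0.005 over all genes. The heat shock median was 0.040 without CD replicate 3, 0.074 without CD replicate 1 and 0.29 without CD replicate 4. Groups did not overlap for *Canx* and for the sensor *Atf6*, both higher, against 4.41% of all genes higher and 3.93% lower.

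*Hspa5* (chr2:34771970-34777547, plus strand) encodes BiP, the main Hsp70 of the ER and the gene with the ER stress response element printed first above. It had 371, 446, 375, 547 and 348 CPM in CD, 583, 475, 589, 591 and 506 in WD and 529, 778, 661, 703 and 505 in WD + CHP. All but the fourth CD library were below every WD and WD + CHP library, and CD replicate 4 lay among them. WD + CHP was 1.52-fold CD (log2 fold change 0.61 ± 0.13 (SE), adjusted p = 0.00718), while WD vs. CD missed the threshold (log2 fold change 0.40 ± 0.13 (SE), adjusted p = 0.0619). At nearly the same fold change *Hspa5* passed in WD vs. CD without the filter on low counts (adjusted p = 0.0403). It also passed in a fit of only these groups (adjusted p = 0.0454) and without CD replicate 4 (log2 fold change 0.52, adjusted p = 0.0121). It was not called by DESeq2 or limma-voom, with DESeq2 size factors or total counts, or where 10 counts were required in each library. Of 10 fits with 1 library left out, 9 did not call it. *Hyou1*, a nucleotide exchange factor of BiP, had 115, 127, 106, 153 and 108 CPM in CD, 159, 139, 167, 169 and 129 in WD and 148, 200, 177, 201 and 139 in WD + CHP. The order was the same, with CD replicate 4 above WD replicates 2 and 5 and WD + CHP replicates 1 and 5. WD + CHP was 1.42-fold CD (log2 fold change 0.51 ± 0.12 (SE), adjusted p = 0.0113). *Hsp90b1*, the Hsp90 of the ER, rose less, from 298 ± 41.3 CPM in CD to 370 ± 41.9 in WD + CHP (mean ± SD, n = 5, log2 fold change 0.31 ± 0.086 (SE), adjusted p = 0.0274). Its libraries ran from 251 to 363 CPM in CD, 318 to 362 in WD and 328 to 414 in WD + CHP, and the call was lost without CD replicates 1 or 5 or WD + CHP replicates 2 or 4 (adjusted p = 0.0588 to 0.0785).

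*Sdf2l1*, a partner of J-domain proteins in the ER lumen, had 5.05, 6.12, 6.07, 7.25 and 5.01 CPM in CD, 10.3, 6.92, 8.77, 8.97 and 7.42 in WD and 8.31, 13.1, 9.71, 12.7 and 6.77 in WD + CHP. WD + CHP replicate 5 fell within the CD range and the other 4 WD + CHP libraries were above it. The difference was 1.71-fold (log2 fold change 0.78 ± 0.17 (SE), adjusted p = 0.0074). *Dnajb11*, a J-domain protein, measured 60.8, 67.6, 65.9, 73.6 and 60.5 CPM in CD, 82.5, 68.7, 79.5, 81.2 and 69.5 in WD and 72.3, 87.5, 86.9, 89.5 and 75.4 in WD + CHP. Replicate 1 was the sole WD + CHP library below the highest CD library. It was 1.25-fold higher (log2 fold change 0.33 ± 0.074 (SE), adjusted p = 0.00968). *Creld2*, given above, was 1.7-fold higher in WD + CHP than in CD (log2 fold change 0.77 ± 0.15 (SE), adjusted p = 0.00369). *Dnajc3*, a further J-domain protein, ran from 170.1 to 204 CPM in CD and 201 to 232 in WD + CHP (log2 fold change 0.20 ± 0.056 (SE), adjusted p = 0.0261), and was not called without CD replicates 1 or 5 or WD + CHP replicates 2, 3 or 4 (adjusted p = 0.0534 to 0.0671). *Canx*, the membrane lectin chaperone calnexin, had 482, 493, 501, 508 and 443 CPM in CD, 525, 515, 515, 507 and 502 in WD and 511, 548, 539.8, 600.2 and 508 in WD + CHP. All 5 WD + CHP libraries were above all 5 CD libraries, by a small margin for replicates 1 and 5. Its rise (log2 fold change 0.16 ± 0.048 (SE), adjusted p = 0.0397) was not called without CD replicates 1 or 5 or WD + CHP replicates 2, 3 or 4 (adjusted p = 0.0632 to 0.101).

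*Hspa5*, *Dnajb11*, *Sdf2l1*, *Creld2* and *Hyou1* were called in all 10 fits that left out 1 CD or WD + CHP library. The count of 11 did move, to 5 without CD replicate 5 or WD + CHP replicate 4, to 6 without CD replicate 1 or WD + CHP replicate 3, to 7 without WD + CHP replicate 2, and to 17 without CD replicate 4. WD + CHP replicate 2 was the highest of the 15 libraries for 11 of the 22 ER genes. Replicate 4 of the same group was the highest for 4, and CD replicate 5 was the lowest for 9. The median ratio of the ER genes to their CD mean was 1.03, 1.21, 1.14, 1.22 and 1.06 in WD + CHP replicates 1 to 5, 1.03 to 1.15 in WD and 0.924 to 1.09 in CD. Plasma cells secrete antibody and are rich in ER. Of 9 plasma cell markers 8 passed the filter, and their summed level was 123 to 206 CPM in CD, 104 to 243 in WD and 146, 296, 200.2, 197 and 119 in WD + CHP replicates 1 to 5, highest in replicate 2. Reads from mitochondrial genes took 17.8 to 19.6% of the counts in CD, 18.7 to 20.9% in WD and 18.9, 20.7, 21.0, 21.1 and 19.9% in WD + CHP replicates 1 to 5. Within WD + CHP replicates 2, 3 and 4 were highest in both this share and the ER ratio, whereas within WD replicate 1 had the highest ER ratio (1.15) at a share of 19.0% and replicates 2 and 3 had the highest shares (20.6 and 20.9%) at ratios of 1.03 and 1.075. The TMM factors of WD + CHP replicates 3 and 4, 0.959 and 0.962, were the lowest of the 15. The part of the plasma cell markers or of the mitochondrial share in the ER result was not tested. With total counts in place of TMM scaling, all-gene calls in this comparison went from 1070 higher and 1000 lower to 660 higher and 1814 lower. *Canx*, *Dnajc3*, *Hspa8* and *Hsp90aa1* lost their calls and *P4hb* gained one as downregulated, while *Hspa5*, *Hsp90b1*, *Dnajb11*, *Sdf2l1*, *Creld2*, *Hyou1* and *Ppp1r15a* were called under both.

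**Figure D2:**
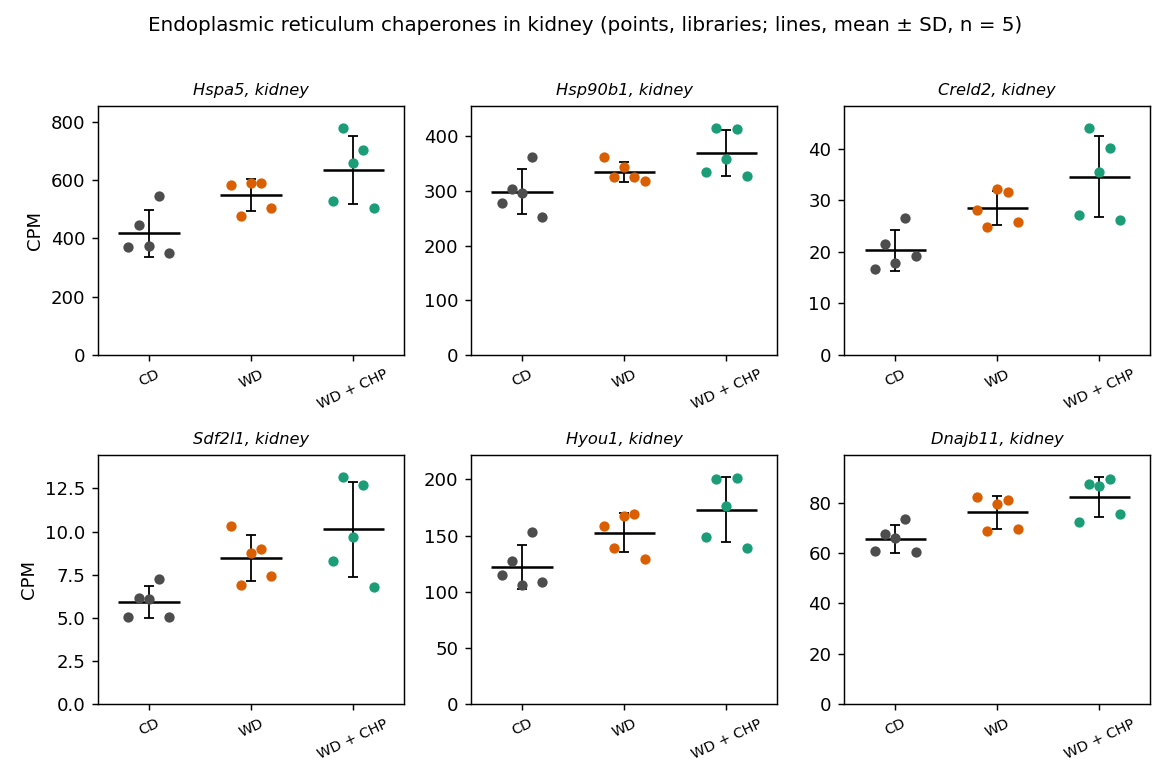
Each panel is 1 ER gene in kidney, with CPM on the vertical axis from 0. Points are the 5 libraries of CD, WD and WD + CHP, and lines are the mean ± SD. The highest CD point of *Hspa5* and *Hyou1*, at 547 and 153 CPM, lies inside the WD + CHP range, and the other 4 CD points of *Hspa5* lie below every WD + CHP point.

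The sensors and the genes of ER-associated degradation were among the kidney genes that missed the threshold in the main edgeR fit. *Xbp1*, the transcription factor whose mRNA is spliced by IRE1, had 244, 194, 166, 200 and 152 CPM in CD, 128, 125, 154, 174 and 141 in WD and 148, 240, 159.6, 126 and 125 in WD + CHP. It varied from 152 to 244 CPM within CD and overlapped in every pair of groups. The log2 fold change was -0.40 (adjusted p = 0.125) in WD vs. CD and -0.26 (adjusted p = 0.328) in WD + CHP vs. CD. The latter was -0.45 and called without WD + CHP replicate 2 (adjusted p = 0.0355), and -0.15 without CD replicate 1 (adjusted p = 0.616). Spliced and unspliced *Xbp1* transcripts cannot be told apart in counts per gene. The sensors *Ern1* (IRE1), *Eif2ak3* (PERK) and *Atf6* had log2 fold changes in WD + CHP vs. CD of -0.11 (adjusted p = 0.296), -0.038 (adjusted p = 0.607) and 0.13 (adjusted p = 0.0714). The degradation genes *Herpud1*, *Syvn1* and *Sel1l* had 0.22 (adjusted p = 0.181), 0.013 (adjusted p = 0.914) and 0.15 (adjusted p = 0.107). *Manf*, a secreted ER protein that binds BiP, stood at 0.42 (adjusted p = 0.0603). Among the lectin chaperones and isomerases *Calr*, *Pdia3*, *Pdia4*, *Pdia6* and the J-domain gene *Dnajb9*, none passed in kidney in the main edgeR fit. Their values ran from -0.046 for *Dnajb9* to 0.23 for *Pdia4* in the same comparison.

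Of the kidney heat shock genes, 2 passed in WD + CHP vs. CD, and neither did in a fit of only these groups (adjusted p = 0.0774 for *Hspa8* and 0.0825 for *Hsp90aa1*). *Hsp90aa1* also missed the threshold by limma-voom (adjusted p = 0.0544). *Hsp90aa1*, the inducible cytosolic Hsp90, had 304, 332, 348, 346 and 242 CPM in CD, 346, 301, 370.1, 307 and 305 in WD and 371, 466, 379, 514 and 314 in WD + CHP. The WD libraries lay within the CD range or just above it, and WD + CHP replicates 2 and 4 stood above all others. WD + CHP exceeded CD 1.3-fold (log2 fold change 0.38 ± 0.12 (SE), adjusted p = 0.0487), a call lost without CD replicates 1, 2 or 5 or WD + CHP replicates 2, 3 or 4 (adjusted p = 0.0598 to 0.137). *Hspa8* measured 1694, 1726, 1310.5, 2432 and 1619 CPM in CD, 2156, 1954, 2228, 1999 and 2087 in WD and 1977, 2763, 2282, 2656 and 2128 in WD + CHP. CD replicate 4 was higher than 3 of the WD + CHP libraries. The log2 fold change was 0.43 ± 0.13 (SE, adjusted p = 0.0356), and the call was lost without CD replicates 1, 2, 3 or 5 or WD + CHP replicates 2, 3 or 4 (adjusted p = 0.0582 to 0.09). Of the 100-base windows of their transcripts, 31.6% for *Hspa8* and 47.5% for *Hsp90aa1* also occur in other transcripts, so reads could be split with near-identical copies and both values are uncertain. *Hsph1*, a nucleotide exchange factor of Hsp70, and *Hspb1*, a small heat shock protein, missed the threshold at 0.41 (adjusted p = 0.0597) and 0.57 (adjusted p = 0.074).

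*Hspa1a* in kidney had 3.67, 4.8, 2.64, 9.13 and 5.65 CPM in CD, 4.33, 3.74, 4.01, 3.35 and 5.81 in WD and 3.87, 4.71, 3.2, 4.6 and 4.71 in WD + CHP. The highest and the lowest value both lay in CD, in replicates 4 and 3. *Hspa1b* had 11.8, 16.8, 9.02, 30.2 and 20.8 CPM in CD, 14, 14.3, 14.4, 13 and 31 in WD and 15, 20.7, 10.8, 17.4 and 18 in WD + CHP. CD replicate 4 and WD replicate 5 were the highest, at 30.2 and 31.0 CPM, and the groups overlapped throughout. In WD vs. CD the log2 fold changes were -0.29 (adjusted p = 0.514) and -0.031 (adjusted p = 0.964), and in WD + CHP vs. CD -0.30 (adjusted p = 0.484) and -0.11 (adjusted p = 0.849). *Cryab* in kidney ran from 75.6 to 118 CPM in CD, 88.7 to 189.6 in WD and 93.2 to 109 in WD + CHP, with WD replicate 5 on its own at the top. The same library had the highest summed hepatocyte markers, 873 CPM against 192 CPM in the lowest WD library, and whether these go together was not tested.

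In gastrocnemius the western diet upregulated heat shock genes and left the ER genes without a call. *Hspa1a* and *Hspa1b* rose the most, *Cryab* and the Hsp70 co-chaperone *Bag3* rose by less, and *Chac1* and *Ppp1r15a* of the ATF4 group were downregulated. In WD vs. CD 6 of 37 genes were called (16.2%), beside 8.63% of all genes tested (4.67% higher and 3.96% lower). These were 4 of 9 heat shock genes (44.4%), 2 of 6 ATF4 genes (33.3%) and 0 of 22 ER genes by edgeR. Of the 4, *Hspa1a* and *Hspa1b* share much of their sequence and are not independent counts. Of the ER genes 4 had an unadjusted p under 0.05, and DESeq2 called 2 and limma-voom 0. At an unadjusted p under 0.05 the 37 genes gave 12, beside 23.7% of all. The median log2 fold change was 0.35 for the heat shock genes, all 9 of which were positive, 0.033 for the ER genes and -0.20 for the ATF4 genes, against 0.0013 over all genes. The libraries of the groups did not overlap for the 4 heat shock genes that were called, against 4.09% of all genes higher and 3.76% lower. In the same comparison all 9 slow fibre markers had positive fold changes (median 0.61), of which 0 were called and 5 had an unadjusted p under 0.05. Of 12 fast fibre markers 10 had negative fold changes (median over the 12 of -0.19), and 2 were called lower, *Ckm* at -0.26 (adjusted p = 0.0257) and *Myl1* at -0.30 (adjusted p = 0.0478). Mitochondrial genes took 7.74 to 10.2% of the counts in CD, 9.09 to 10.5% in WD and 9.49 to 11.5% in WD + CHP.

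WD + CHP vs. CD in gastrocnemius called 8 of 37 genes (21.6%), all upregulated, beside 9.4% of all genes tested (4.85% higher and 4.55% lower). They were 6 of 9 heat shock genes (66.7%), *Hspa1a*, *Hspa1b*, *Hsp90aa1*, *Hspb1*, *Cryab* and *Bag3*, and 2 of 22 ER genes (9.09%), *Manf* and *Ern1*. Here too *Hspa1a* and *Hspa1b* are not independent counts. The ATF4 group gave 0 of 6 by edgeR, with 2 at an unadjusted p under 0.05, 1 by DESeq2 and 2 by limma-voom. At an unadjusted p under 0.05 the 37 genes gave 16, beside 25.2% of all. The median log2 fold change was 0.47 for the heat shock genes, 0.11 for the ER genes and -0.092 for the ATF4 genes, against -0.012 over all genes. The groups did not overlap for *Hspa1a*, *Hspa1b* and *Bag3*, against 4.55% of all genes higher and 4.2% lower. The count of 8 fell to 5 without CD replicate 1 or WD + CHP replicate 3.

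*Hspa1a* (chr17:34969190-34972156, minus strand) in gastrocnemius had 3.6, 5.11, 3.18, 4.8 and 3.28 CPM in CD, 14.1, 10.2, 13.4, 11.3 and 13.5 in WD and 20.7, 12.4, 23.9, 13.3 and 23 in WD + CHP. Every WD and WD + CHP library exceeded every CD library, and WD + CHP replicates 1, 3 and 5 stood above the other 12 libraries. WD was 3.13-fold CD (log2 fold change 1.64 ± 0.19 (SE), adjusted p = 0.000119) and WD + CHP was 4.67-fold CD (log2 fold change 2.22 ± 0.19 (SE), adjusted p = 2.2e-05). *Hspa1b* (chr17:34956436-34959238, minus strand) lies beside it on the same strand and had 2.9, 3.99, 2.77, 3.77 and 2.71 CPM in CD, 11.3, 8.18, 11.4, 7.4 and 9.03 in WD and 17.2, 9.0, 18.1, 9.61 and 18.7 in WD + CHP. The pattern was the same, with the same 3 WD + CHP libraries on top. WD was 2.93-fold CD (log2 fold change 1.55 ± 0.22 (SE), adjusted p = 0.000376) and WD + CHP was 4.5-fold CD (log2 fold change 2.17 ± 0.22 (SE), adjusted p = 3.69e-05). The near-identical sequence of the pair makes each gene's share uncertain, since 48.6% of the windows of *Hspa1a* and 49.9% of those of *Hspa1b* occur elsewhere. Summed, they gave 5.94 to 9.10 CPM in CD, 18.4 to 25.4 in WD and 21.4 to 42.1 in WD + CHP, with log2 fold changes of 1.60 (adjusted p = 0.000145) for WD and 2.20 (adjusted p = 2.2e-05) for WD + CHP against CD. In kidney the sum differed by -0.085 (adjusted p = 0.888) and -0.15 (adjusted p = 0.778).

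*Cryab* (chr9:50751325-50756636, plus strand) in gastrocnemius had 356, 462, 281, 309 and 299 CPM in CD, 476, 544, 581, 466 and 606 in WD and 421, 540.4, 607, 476 and 508 in WD + CHP. All WD libraries were above all CD libraries, and WD + CHP replicate 1 was the sole treated library below CD replicate 2. It rose 1.57-fold in WD (log2 fold change 0.65 ± 0.13 (SE), adjusted p = 0.00444) and 1.5-fold in WD + CHP (log2 fold change 0.58 ± 0.13 (SE), adjusted p = 0.00914) against CD. *Bag3* (chr7:128523616-128546981, plus strand), which links Hsp70 to the removal of damaged filament proteins, had 118, 148, 125, 140.4 and 129 CPM in CD, 172, 171, 172, 156 and 170 in WD and 179, 161, 198, 182 and 201 in WD + CHP. No CD library reached the lowest WD or WD + CHP library. Its log2 fold change was 0.35 ± 0.067 (SE, adjusted p = 0.00403) in WD and 0.48 ± 0.067 (SE, adjusted p = 0.00066) in WD + CHP. *Hspa1a*, *Hspa1b*, *Cryab* and *Bag3* kept their calls against CD in all 10 fits that left out 1 library, in WD and in WD + CHP.

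*Hspb1* in gastrocnemius ranged from 66.2 to 101 CPM in CD, 84.7 to 93.3 in WD and 93 to 114 in WD + CHP. Of the CD libraries, replicate 2 alone reached the WD + CHP range. The rise in WD + CHP vs. CD (log2 fold change 0.41 ± 0.089 (SE), adjusted p = 0.00907) was called in all 10 fits with 1 library left out, and 42.7% of the windows of *Hspb1* also occur in its pseudogene *Hsp25-ps1*. *Hsp90aa1* had 43.7, 50.4, 41, 45.1 and 51.4 CPM in CD, 72, 52.2, 58.5, 50.5 and 47.4 in WD and 74, 60.1, 73.2, 46.7 and 67.5 in WD + CHP. WD + CHP replicate 4 and 2 of the WD libraries were within the CD range. The rise in WD + CHP vs. CD (log2 fold change 0.47 ± 0.12 (SE), adjusted p = 0.0252) was not called without CD replicates 1 or 3 or WD + CHP replicates 1, 3 or 5 (adjusted p = 0.0553 to 0.0727). In the main edgeR fit *Hspa8*, *Hsph1* and *Dnajb1*, the J-domain partner of Hsp70, missed the threshold against CD. Their log2 fold changes in WD + CHP vs. CD were 0.12, 0.27 and 0.29. CD replicate 5 of *Dnajb1* stood at 8.97 CPM, against 4.54 to 5.75 in the other CD libraries. Slow muscle fibres are rich in small heat shock proteins. The 9 slow fibre markers all passed and summed to 594 to 1632 CPM in CD, 817 to 2896 in WD and 977 to 1612 in WD + CHP. The 12 fast fibre markers summed to 220731 to 261227 CPM in CD, 195686 to 226496 in WD and 201843 to 234934 in WD + CHP. The 10 adipocyte markers summed to 123 to 198 CPM in CD, 178 to 227 in WD and 106 to 174 in WD + CHP, with 5 called higher in WD vs. CD (*Lep*, *Cidea*, *Cidec*, *Adipoq* and *Plin1*, by 0.93 to 3.96 on the log2 scale) and *Cfd* called lower at -1.59 (adjusted p = 0.000546). The single markers named here and above were chosen after their values were seen. The part of these lists or of the mitochondrial share in the heat shock result was not tested.

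**Figure D3:**
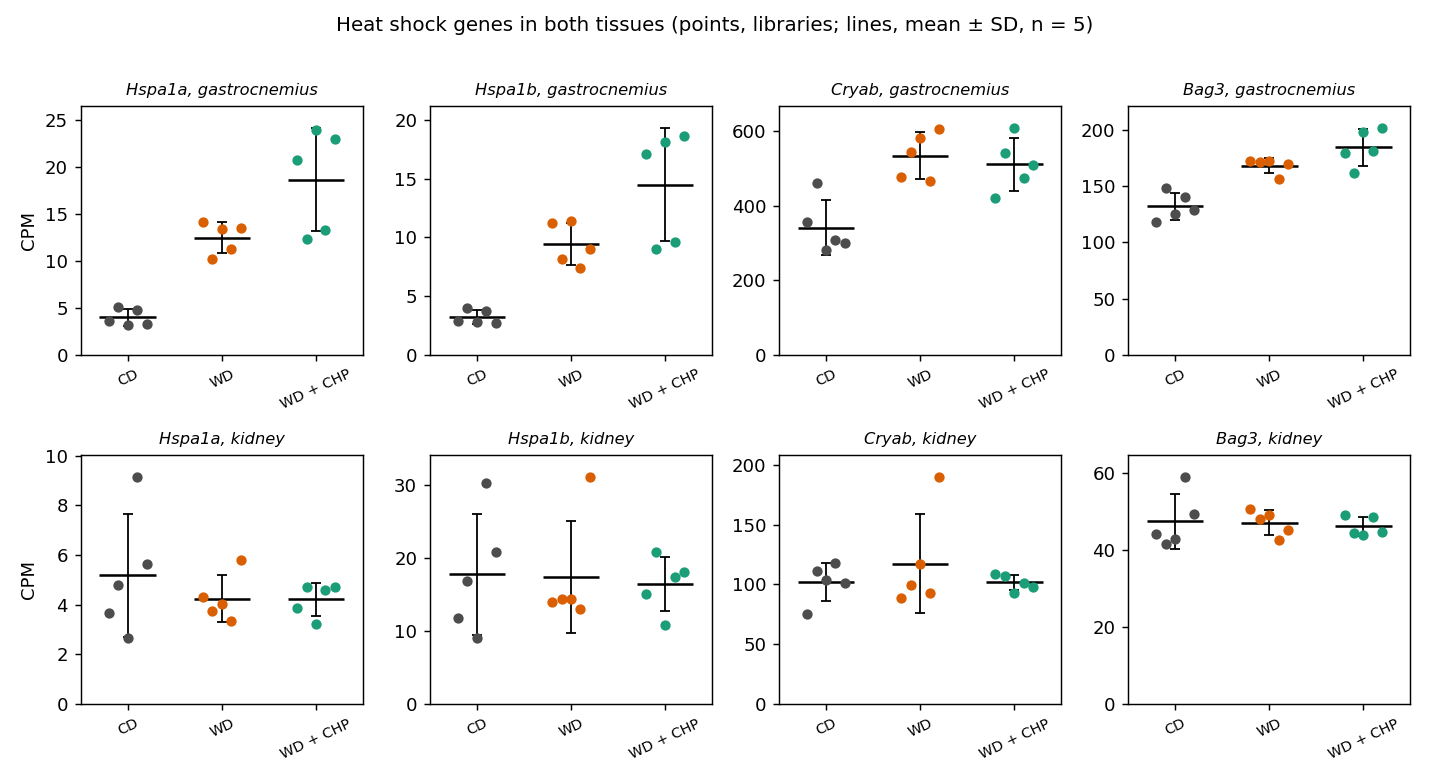
Each panel is 1 heat shock gene, with gastrocnemius in the top row and kidney in the bottom row, CPM on the vertical axis from 0, points for the 5 libraries of a group, and lines for the mean ± SD. In gastrocnemius the *Hspa1a* points lie at 3.18 to 5.11 CPM in CD and at 12.4 to 23.9 CPM in WD + CHP, and in kidney the 3 groups overlap.

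The WD effect differed between the tissues for 2 of the 37 genes, beside 4.13% of 18708 genes tested in 1 fit over all 30 libraries, which took kidney and muscle libraries as independent although they may come from the same mice. The WD vs. CD log2 fold change of *Hspa1a* was larger by 1.93 ± 0.33 (SE, adjusted p = 0.000642) in gastrocnemius than in kidney, and that of *Hspa1b* by 1.58 ± 0.40 (SE, adjusted p = 0.0201). The 2 genes share much of their sequence and are not independent counts. With limma-voom the *Hspa1b* difference missed the threshold (adjusted p = 0.0562). By edgeR *Bag3* differed by 0.36 (adjusted p = 0.0600), *Hspa5* by -0.34 (adjusted p = 0.229) and *Sdf2l1* by -0.60 (adjusted p = 0.164). *Creld2* differed by -0.46 (adjusted p = 0.166) and *Chac1* by -1.48 (adjusted p = 0.190). DESeq2 called 4 of the 37 genes, 3 with a positive and 1 with a negative difference. For the effect of CHP on top of WD, 0 of 37 genes differed by edgeR, beside 0.347% of all, with 2 at an unadjusted p under 0.05, 0 by DESeq2 and 0 by limma-voom.

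Of the ER genes, 2 passed in gastrocnemius in the main edgeR fit, both in WD + CHP vs. CD. Neither did without the filter on low counts (adjusted p = 0.0505 for *Manf* and 0.0628 for *Ern1*). *Ern1* also missed the threshold by limma-voom (adjusted p = 0.0503). *Manf* had 13.1, 12.7, 12.9, 14.1 and 14.1 CPM in CD, 14.8, 14, 14.5, 14.1 and 14.6 in WD and 16.6, 16.5, 16.4, 13 and 15.9 in WD + CHP. WD + CHP replicate 4 lay within the CD range and the other 4 lay above it (log2 fold change 0.23 ± 0.063 (SE), adjusted p = 0.0309). *Ern1* ran from 12.7 to 15.5 CPM in CD, 13.8 to 18.5 in WD and 15 to 20.8 in WD + CHP (log2 fold change 0.30 ± 0.091 (SE), adjusted p = 0.0442). The *Manf* call was lost without CD replicates 1, 2 or 3 or WD + CHP replicates 1, 2, 3 or 5 (adjusted p = 0.0519 to 0.0832), and the *Ern1* call without CD replicates 1, 2, 4 or 5 or WD + CHP replicates 1, 3 or 5 (adjusted p = 0.0516 to 0.112). *Hspa5* had 164, 166, 177, 176 and 162 CPM in CD, 187, 183, 184, 166 and 159 in WD and 198, 185, 197, 169 and 204 in WD + CHP. The groups overlapped, and WD + CHP vs. CD gave 0.17 (adjusted p = 0.0734) on the log2 scale. That difference was called by DESeq2 (adjusted p = 0.0321), with total counts in place of TMM (adjusted p = 0.0405) and without WD + CHP replicate 4 (adjusted p = 0.0283). *Xbp1* was between 39.7 and 47.2 CPM in all 15 libraries. The remaining ER genes of WD + CHP vs. CD lay between -0.19 for *Eif2ak3* and 0.22 for *Creld2*.

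The ATF4 group held 1 upregulated gene in kidney and 2 downregulated genes in gastrocnemius in WD vs. CD. *Atf4* itself, whose protein is set mainly by translation, had 52.1 to 65.2 CPM in CD, 52.7 to 59.2 in WD and 53.6 to 62.2 in WD + CHP kidney, and 102 to 117, 95.1 to 129 and 106 to 115 CPM in gastrocnemius. None of its 6 contrasts was called, and the largest was 0.05 (adjusted p = 0.798) in kidney WD + CHP vs. WD. *Ddit3* in kidney had 5.63, 5.86, 5.23, 5.37 and 6.49 CPM in CD, 8.84, 7.47, 6.9, 6.33 and 9.72 in WD and 6.35, 5.78, 7.04, 9.07 and 6.77 in WD + CHP. WD replicate 4 lay within the CD range and the other WD libraries above it. WD vs. CD gave 1.37-fold (log2 fold change 0.46 ± 0.13 (SE), adjusted p = 0.0292), lost without CD replicates 1, 3 or 4 or WD replicates 1 or 5 (adjusted p = 0.0513 to 0.0724). In gastrocnemius *Ddit3* ran from 1.85 to 3.61 CPM in CD and 2.71 to 3.63 in WD, with 0.36 (adjusted p = 0.273) in WD vs. CD. *Trib3*, a pseudokinase that ATF4 is known to turn on, was low, at 0.433 to 0.748 CPM in CD kidney and 0.793 to 1.55 CPM in CD gastrocnemius, and WD vs. CD gave 0.26 (adjusted p = 0.411, 0.18 to 0.42 with 1 library left out) and -0.40 (adjusted p = 0.233, -0.52 to -0.24).

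*Ppp1r15a* encodes GADD34, which restores translation by directing a phosphatase to the initiation factor. In kidney it had 12.8, 13.9, 15.8, 13.5 and 15.1 CPM in CD, 13.6, 12.9, 15.2, 14.5 and 13.2 in WD and 12, 11.9, 11.8, 11.4 and 13 in WD + CHP. WD + CHP replicate 5 was the only library of that group inside the CD and WD ranges. WD + CHP vs. CD fell (log2 fold change -0.24 ± 0.063 (SE), adjusted p = 0.0209), but not without CD replicates 3 or 5 or WD + CHP replicates 3 or 4 (adjusted p = 0.0563 to 0.0678). In gastrocnemius it had 31.5, 38.4, 32.1, 27.7 and 31.9 CPM in CD, 24.2, 21.7, 23.3, 26.3 and 28.1 in WD and 22.3, 22, 24.6, 27.5 and 32 in WD + CHP. All but WD replicate 5 of the WD libraries were below every CD library. WD vs. CD fell (log2 fold change -0.39 ± 0.10 (SE), adjusted p = 0.029) and was not called without CD replicates 2, 3 or 5 or WD replicates 1, 2 or 3 (adjusted p = 0.0509 to 0.0746). *Chac1* (chr2:119351229-119354381, plus strand) in kidney had 0.917, 1.06, 0.889, 0.954 and 0.814 CPM in CD, 0.897, 1.30, 1.08, 1.77 and 0.724 in WD and 1.49, 1.78, 1.89, 1.47 and 0.893 in WD + CHP. All but WD + CHP replicate 5 of that group were above every CD library, and WD + CHP vs. CD gave a log2 fold change of 0.70 ± 0.23 (SE, adjusted p = 0.0534), which DESeq2 called, as did edgeR where 10 counts were required in each library. In gastrocnemius *Chac1* had 203, 84.9, 131, 79.98 and 129 CPM in CD, 35.5, 54.8, 63, 44.4 and 83.3 in WD and 107, 93.5, 33.7, 41.3 and 34.8 in WD + CHP. Replicate 1 of CD was the highest library, WD replicate 5 exceeded the lowest CD library, and the WD + CHP libraries formed a low set of 3 and a set of 2 inside the CD range. WD vs. CD fell (log2 fold change -1.16 ± 0.35 (SE), adjusted p = 0.0468) and was not called without CD replicates 1, 3 or 5 or WD replicates 1, 2, 3 or 4 (adjusted p = 0.0727 to 0.117), while WD + CHP vs. CD was -1.02 (adjusted p = 0.0741). With total counts in place of TMM, under which all-gene calls of WD vs. CD in gastrocnemius went from 720 higher and 610 lower to 1506 higher and 346 lower, both *Chac1* and *Ppp1r15a* lost their calls. *Asns*, asparagine synthetase, ranged from 2.6 to 6.01 CPM in CD and 3.09 to 7.24 CPM in WD + CHP kidney and gave 0.45 (adjusted p = 0.227).

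**Figure D4:**
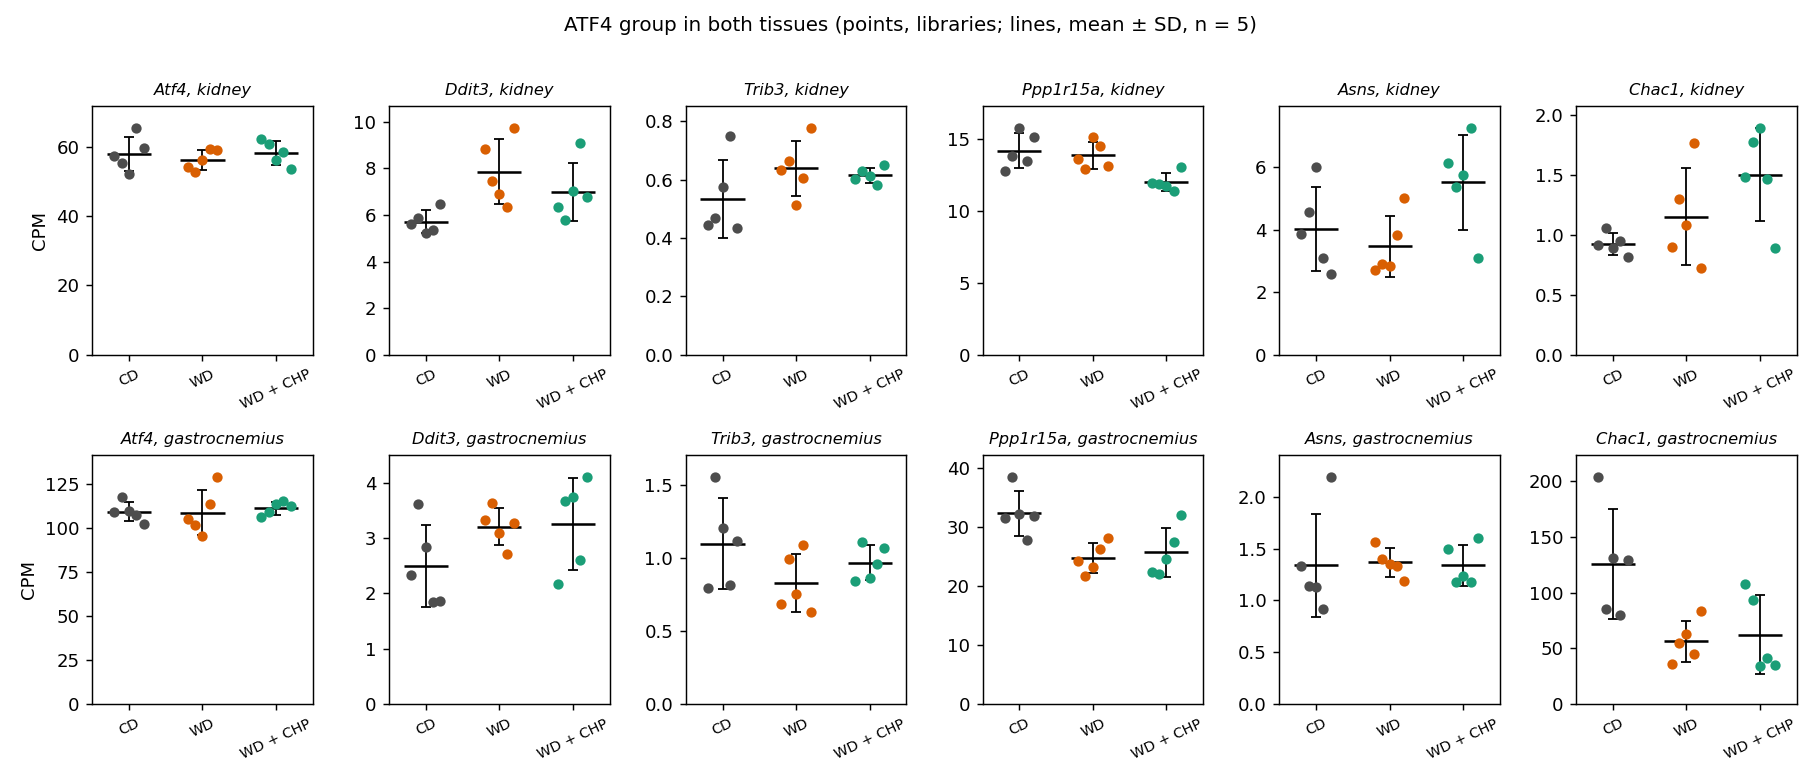
Each panel is 1 gene of the ATF4 group, with kidney in the top row and gastrocnemius in the bottom row, CPM on the vertical axis from 0, points for the 5 libraries of a group, and lines for the mean ± SD. *Chac1* is at most 1.89 CPM in kidney and between 33.7 and 203 CPM in gastrocnemius, and *Atf4* shows no separation of the groups in either tissue.

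WD + CHP vs. WD asked what CHP changed in mice on the western diet. None of the 37 genes was called by edgeR in either tissue. The share of all genes called was 0.105% in kidney and 0.409% in gastrocnemius. DESeq2 and limma-voom also called 0 of the 37 in each. The unadjusted p was under 0.05 for 3 genes in kidney, beside 11.4% of all genes, and for 3 in gastrocnemius, beside 12.5%. The 3 in kidney were *Ppp1r15a* at -0.21 (adjusted p = 0.198), *Asns* at 0.67 (adjusted p = 0.29) and *Hsp90aa1* at 0.33 (adjusted p = 0.304). The 3 in gastrocnemius were heat shock genes, *Hspa1a* at 0.58 (adjusted p = 0.189), *Hspa1b* at 0.62 (adjusted p = 0.205) and *Hspb1* at 0.26 (adjusted p = 0.235). *Hspa5* gave 0.21 (adjusted p = 0.57, and 0.13 without WD + CHP replicate 2) in kidney and 0.12 (adjusted p = 0.438) in gastrocnemius. The median log2 fold change of the ER genes was 0.084 in kidney and 0.019 in gastrocnemius, and of the heat shock genes -0.011 and 0.13, against -0.0058 and -0.013 over all genes. The kidney heat shock median turned positive without WD replicate 1 (0.019), WD replicate 5 (0.18) or WD + CHP replicates 1 (0.024) or 3 (0.077). WD + CHP libraries of *Hspa1a* in gastrocnemius lay above the WD range in 3 of 5 replicates and inside it in 2. A call against CD without a call against WD does not show a difference between WD + CHP and WD.

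**Figure D5:**
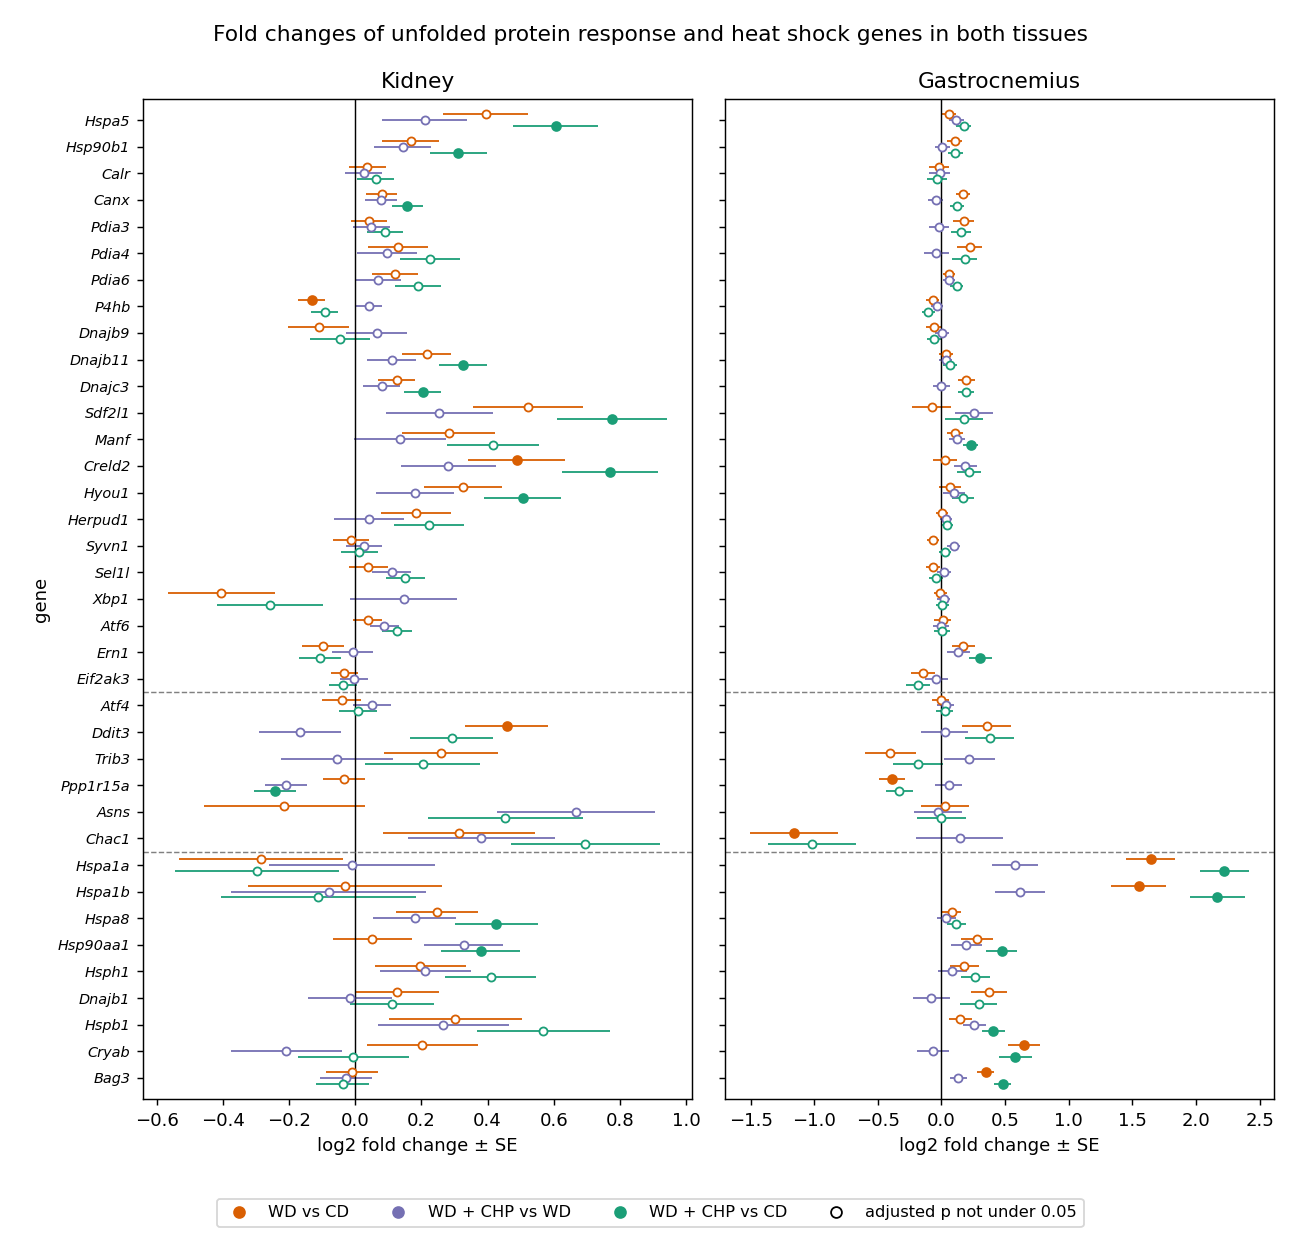
Points are log2 fold changes of the 37 genes (rows) with bars of the SE in kidney and gastrocnemius, for WD vs. CD, WD + CHP vs. WD and WD + CHP vs. CD. Filled points have an adjusted p under 0.05: 3, 0 and 11 in kidney and 6, 0 and 8 in gastrocnemius.

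Other genes of the same pathways were counted from lists that hold none of the 37. In kidney WD + CHP vs. CD, where 12.1% of all genes were called, the other ER genes gave 2 higher and 2 lower of 44, a share below that of all genes. *Derl3*, of ER-associated degradation, rose by 1.395 (adjusted p = 0.00521) on the log2 scale, but it is also on the plasma cell list, and *Uggt1*, the glycoprotein folding sensor, rose by 0.18 (adjusted p = 0.0227). *Edem2* and *Dnajc10* were lower, at -0.20 (adjusted p = 0.0179) and -0.15 (adjusted p = 0.0142). The other heat shock genes gave 6 higher and 2 lower of 41, led by the small heat shock gene *Hspb8*, a partner of BAG3, at 1.11 (adjusted p = 0.00122). *Chordc1*, an Hsp90 co-chaperone, followed at 0.39 (adjusted p = 0.0133), while *Hspa2* was lower at -0.39 (adjusted p = 0.0159). Other ATF4 genes gave 4 higher and 0 lower of 37, also a smaller share than over all genes, led by *Mthfd2*, a mitochondrial folate enzyme, at 0.61 (adjusted p = 0.0217). In kidney WD vs. CD, beside 9.65% of all genes, the counts were 0 higher and 2 lower for ER, 1 and 0 for ATF4, *Stc2* at 0.57 (adjusted p = 0.00913), and 1 and 2 for heat shock.

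In gastrocnemius WD vs. CD, beside 8.63% of all genes, the other heat shock genes gave 4 higher and 2 lower of 42. The muscle small heat shock genes *Hspb7* and *Hspb6* rose by 0.87 (adjusted p = 0.00671) and 0.38 (adjusted p = 0.00953), and the J-domain genes *Dnajb4* and *Dnaja1* by 0.84 (adjusted p = 2.24e-05) and 0.45 (adjusted p = 0.00451). *Ubb* was lower at -0.22 (adjusted p = 0.0316). The other ATF4 genes gave 5 higher and 0 lower of 37. They were the stress transcription factor *Atf3* at 1.62 (adjusted p = 0.00186), which is also the only called gene of 13 on the immediate early list (10 of the 13 positive, 5 at an unadjusted p under 0.05), the serine synthesis genes *Psat1* and *Phgdh* at 0.87 (adjusted p = 0.0025) and 0.71 (adjusted p = 0.00238), *Nupr1* at 0.53 (adjusted p = 0.00655) and the glycine transporter *Slc6a9* at 0.36 (adjusted p = 0.00482). The other ER genes gave 1 higher and 0 lower of 43, *Derl2* at 0.24 (adjusted p = 0.0108). In WD + CHP vs. WD, *Slc6a9* was lower at -0.37 (adjusted p = 0.0334) and was the only gene of the 3 other lists called in gastrocnemius. In WD + CHP vs. CD, beside 9.4% of all genes, the counts were 3 higher for ER, 1 for ATF4, *Atf3* at 1.897 (adjusted p = 0.000915), and 5 for heat shock, with 0 lower in each. The ER genes were *Wfs1* at 0.43, *Atf6b* at 0.21 and *Rpn1* at 0.18, and the heat shock genes *Dnajb4* at 0.77, *Hspb7* at 0.76, the collagen chaperone *Serpinh1* at 0.60, *Hspb6* at 0.44 and *Dnaja1* at 0.41 (adjusted p = 4.71e-05 to 0.0305 over the 8).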

How the data were processed

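The 30 RNA-seq libraries are 5 per diet and treatment group from each of kidney and gastrocnemius. The files deposited by the authors hold counts of reads per gene, without normalisation, from polyA libraries sequenced on a BGISEQ-500, and the submitters' processing notes name STAR 2.7.3a and GRCm38 (mm10). The counting tool, annotation and strand setting are not given in the sources used here, so genes that overlap on the other strand cannot be told apart. The labels name liver as the source of the RNA, whereas the study's methods name kidney and gastrocnemius, which tissue markers were used to check. Each library was taken as 1 mouse, and p-values measure the spread between these libraries. Liver libraries were not analysed here.

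All values from the counts onwards were computed here in R 4.3.3 with edgeR 4.0.16. The filter filterByExpr (minimum count 10) left 17120 genes in kidney and 15419 in gastrocnemius. The 15 libraries of a tissue were scaled by TMM and tested together by the two-sided quasi-likelihood F test. P-values were adjusted by Benjamini-Hochberg across every gene that passed, and an adjusted p under 0.05 was called. The tissue difference was an interaction over all 30 libraries. CPM values use TMM-scaled library sizes, and each standard error is the fold change over the root of F. Log2 CPM with a prior count of 2 served only to check whether replicate numbers pair the samples. *Ddit3* has 2 identifiers, of which the one with counts was used.

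The members and lists were chosen with earlier results of these data known. Genes with an adjusted p under 0.05 in any comparison were given with their values in every library or their range, as were *Hspa5*, *Xbp1*, *Atf4*, *Ddit3*, *Trib3*, *Hspa1a*, *Hspa1b* and *Cryab* whatever their values, and at most 5 genes per list of other pathway genes. Not every called gene of these lists is named. Sequences shared with other transcripts were found from exact windows of 100 bases, and promoters (RefSeq, GRCm38.p6) were searched for exact motif letters. The model was tested on simulated counts. Alternatives were DESeq2 1.42.0, limma-voom (limma 3.58.1), DESeq2 size factors or total counts instead of TMM, a filter of 10 counts in each library or none, a threshold of 0.1, a fit of only the 2 groups compared, the replicate number as a block, and each library left out in turn, and, added after seeing the data, *Hspa1a* and *Hspa1b* summed. Plots were drawn with matplotlib 3.10.9.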

Additional observations from a re-analysis of the deposited data

Results flagged for a closer look

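In 10 of 222 groups of 5 libraries searched (37 genes, 3 groups, 2 tissues), 1 library stood apart from the other 4, its gap to the nearest being more than 0.71 of the group's range. Chance gives about 5% of groups, so this number of flags is no more than chance gives. Of these, 3 were in kidney WD: *Hspa1b* in replicate 5 (gap 0.926 of the range, 31.0 CPM against 13.0 to 14.4), *Cryab* in the same replicate (gap 0.719, 189.6 CPM against 88.7 to 117) and *Calr* in replicate 1 (gap 0.828, 897 CPM against 759.9 to 784).

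In gastrocnemius CD, *Pdia4* was highest in replicate 2 (gap 0.945, 11.6 CPM against 9.93 to 10.0), *P4hb* lowest in replicate 1 (gap 0.796, 148.5 CPM against 171 to 177), *Dnajc3* highest in replicate 4 (gap 0.764, 42.3 CPM against 36.1 to 37.6) and *Dnajb1* highest in replicate 5 (gap 0.728, 8.97 CPM against 4.54 to 5.75). In gastrocnemius WD, *Bag3* was lowest in replicate 4 (gap 0.857, 156 CPM against 170.0 to 172). In gastrocnemius WD + CHP, *Dnajb1* was highest in replicate 3 (gap 0.84, 8.84 CPM against 6.79 to 7.12) and *Manf* lowest in replicate 4 (gap 0.819, 13.0 CPM against 15.9 to 16.6).

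A difference between tissues passed the interaction test for the WD effect of *Hspa1a*, larger by 1.93 (log2) in gastrocnemius than in kidney, and of *Hspa1b*, larger by 1.58. Both were called in all 20 fits that left out 1 CD or WD library of either tissue.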

How the results depend on the processing

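Of the 37 genes *Trib3* had the fewest counts, 17 in its lowest kidney library, so counting error was largest for it. The counts moved most in kidney. For WD vs. CD the 3 called genes became 6 by DESeq2, 7 at an adjusted p under 0.1 and 0 to 8 with 1 library left out. For WD + CHP vs. CD the 11 became 17 at an adjusted p under 0.1 and 5 to 17 with 1 library left out. In gastrocnemius WD + CHP vs. CD the 8 became 11 by DESeq2, 12 at an adjusted p under 0.1 and 5 to 10 with 1 library left out. The 2 genes whose WD effect differed between tissues became 4 by DESeq2 and 1 by limma-voom. For WD + CHP vs. WD, DESeq2 called 194 of all genes in kidney and 249 in gastrocnemius, against 18 and 63 by edgeR. The cause of these shifts was not tested.

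With all libraries in, each list median, each gene called in a comparison and the 8 genes reported whatever their values were followed. This was done for every alternative except the threshold of 0.1. Of these values 667 were unchanged, 25 lost a call (most often *P4hb* in kidney WD vs. CD), 5 gained one and 11 values of genes changed sign. For a gene, unchanged means the same direction and side of the threshold. For a list median it means a shift below the SD of that median within groups, whatever its sign. Calls that other members gained, such as *Dnajb11*, *Sdf2l1* and *Hyou1* by DESeq2 in kidney WD vs. CD, are not in this tally. No value that changed sign was called in the comparison in which it did so. In kidney WD vs. CD, *Hspa1b* was 0.011 by limma-voom and 0.0074 with the replicate block, and with 1 library left out *Atf4* ran from -0.072 to 0.010, *Hspa1a* from -0.45 to 0.025, *Hspa1b* from -0.34 to 0.25 and *Cryab* from -0.033 to 0.29. In kidney WD + CHP vs. CD, *Cryab* was 0.0079 by limma-voom and 0.0094 with the replicate block, *Atf4* was -0.044 with total counts, and left-out libraries gave *Atf4* -0.018 to 0.064, *Hspa1a* -0.45 to 0.018, *Hspa1b* -0.27 to 0.18 and *Cryab* -0.089 to 0.060. In kidney WD + CHP vs. WD they gave *Xbp1* -0.044 to 0.23, *Trib3* -0.12 to 0.028, *Hspa1a* -0.082 to 0.13, *Hspa1b* -0.18 to 0.24 and *Cryab* -0.29 to 0.036. In gastrocnemius WD vs. CD, total counts gave *Xbp1* 0.057 and *Atf4* 0.060, and left-out libraries -0.033 to 0.028 and -0.075 to 0.037. In WD + CHP vs. CD left-out libraries gave *Xbp1* -0.0071 to 0.021. In WD + CHP vs. WD, total counts gave *Xbp1* -0.027, *Atf4* -0.011 and *Ddit3* -0.015, limma-voom gave *Ddit3* -0.0077, and left-out libraries gave -0.022 to 0.039, -0.012 to 0.10 and -0.073 to 0.14.

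Replicate numbers did not pair the samples: same-numbered libraries correlated by -0.091 to 0.14 in kidney and -0.13 to 0.15 in gastrocnemius. With the replicate block the counts of called genes were 6 in kidney WD vs. CD, 14 in WD + CHP vs. CD, and 5 and 6 in the same comparisons of gastrocnemius. With the block *Hspa5* in kidney WD vs. CD passed (adjusted p = 0.0219), as did *Chac1* in kidney WD + CHP vs. CD, while *P4hb* in kidney WD vs. CD and, in gastrocnemius, *Manf*, *Ern1* and *Chac1* lost their calls (adjusted p = 0.05004 to 0.0743). A fit of only the compared groups also ended the kidney WD + CHP vs. CD calls of *Hsp90b1* (adjusted p = 0.0592) and *Canx* (0.0902), and no filter those of *Canx* (0.0647) and of *Chac1* in gastrocnemius WD vs. CD (0.0530). List medians moved with 1 library left out: in gastrocnemius the ER median ran from 0.0074 to 0.060 in WD vs. CD and 0.0048 to 0.055 in WD + CHP vs. WD, the ATF4 median from -0.18 to -0.033 in WD + CHP vs. CD, and in kidney the ER median from 0.044 to 0.11 in WD + CHP vs. WD.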
